A study of Homo sapiens with 4 samples.

Results

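The genes described here are 10 transcription factor genes of the luminal breast lineage, ESR1, GATA3, FOXA1, SPDEF, XBP1, TFAP2A, TFAP2B, TBX3, ELF3 and EHF. They were picked by symbol among 60675 genes measured by RNA sequencing, and all 10 had enough reads to be tested. The samples were 4 libraries of MM134 cells, a lobular breast cancer line that expresses the estrogen receptor. Of these, 2 came from the HER2 WT line, labelled as carrying wild-type HER2. The other 2 came from the HER2 L755S line, labelled as carrying HER2 L755S. This substitution lies in the kinase domain of HER2, a receptor tyrosine kinase. Cells of both lines were grown to 70% confluence in full serum and then kept without estrogen for 7 days, in phenol red free medium with 5% charcoal-stripped serum, so that no group had estrogen. The sources used here do not give how HER2 was altered, whether a line is 1 clone, or whether the libraries of a line are separate cultures. The p-values thus rest on the spread between libraries alone, and that spread may be technical.

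Estrogen receptor alpha, encoded by ESR1, is a hormone-activated transcription factor that sets much of the gene expression of luminal breast cells. FOXA1 opens chromatin so that the receptor can bind, and GATA3 acts with both in a circuit in which each factor supports expression of the others. AP-2 factors, the T-box factor TBX3, the bZIP factor XBP1 and epithelial ETS factors belong to the same luminal or secretory programmes.

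Total expected counts ran from 27423247 to 31088422 per library. Mitochondrial transcripts took 4.4% and 4.03% of counts in the number 1 libraries of HER2 WT and HER2 L755S, and 8.83% and 13.5% in the number 2 libraries. Levels are given as CPM, which are counts relative to the library total scaled by TMM, to compare 1 gene across libraries, and as TPM, which corrects for length, to compare genes. TPM was not rescaled by TMM, so it also moves with the mitochondrial share. The summed TPM of 18 luminal keratin and surface genes was 8919 to 9509 in HER2 WT and 6795 to 8643 in HER2 L755S. KRT18 stood at 439 to 797 TPM in the 4 libraries. Of 20 basal and myoepithelial genes, SNAI2, SOX10 and EN1 were listed at 0 in every library, and KRT5 and KRT14 stood at no more than 0.22 and 0.08 TPM. The summed TPM of that list was 92.2 to 113.8 in HER2 WT and 64.5 to 82.1 in HER2 L755S, most of it from VIM (53.9 to 96.5 TPM), with CDH3 at 5.02 to 7.19 TPM and TAGLN at 1.57 to 6.18 TPM. The summed TPM of 12 leukocyte markers did not exceed 1.37, and PTPRC, the defining leukocyte gene, was at or below 0.01 TPM.

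None of the 10 genes passed an adjusted p of 0.05 between the lines in edgeR's quasi-likelihood test with Benjamini-Hochberg adjustment. DESeq2 and limma-voom also called 0 of them, against 585 and 278 of all 16538 tested genes. Over all tested genes, 1.69% passed edgeR's test, 0.738% as higher and 0.949% as lower in HER2 L755S. At an unadjusted p under 0.05 there were 4 of the 10 (ESR1, EHF and ELF3 on the lower side in HER2 L755S, XBP1 on the higher side), against 10.5% of all tested genes (6.46% lower and 4.08% higher). In CPM, 8 of the 10 had no overlap between the lines, against 36.2% of tested genes. Of these, 5 were higher in HER2 L755S, against 16.9%, and 3 were lower, against 19.3%. In TPM this was so for 5 of the 10 (ESR1, XBP1, TFAP2A, ELF3 and EHF), against 35.1%. The members were chosen with earlier results of these data known, so these shares are no independent evidence of a difference. The median log2 fold change of the 10 genes was 0.20, and that of all tested genes was 0.00. On counts simulated for this comparison over 16538 genes, the test recovered 0% of 2-fold differences and 74% of 4-fold differences. All members but EHF differed by less than 4-fold. The simulated differences were placed at random among all tested genes, so the share recovered for genes of few reads, such as EHF, was not measured.

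**Figure D1:**
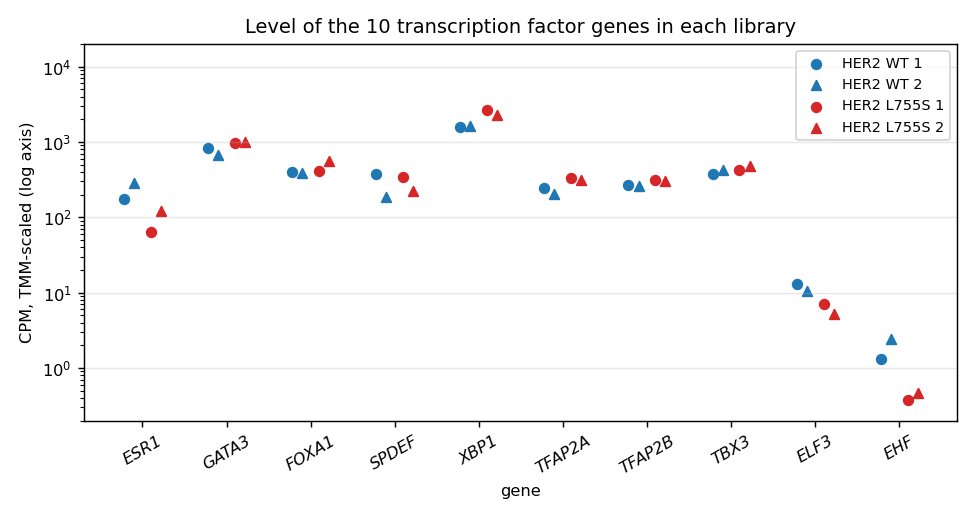
CPM (TMM-scaled, log axis) of the 10 genes in the 2 HER2 WT (blue) and 2 HER2 L755S (red) libraries, with circles for number 1 and triangles for number 2. For ESR1, ELF3 and EHF both HER2 L755S points lie under both HER2 WT points. The red points lie above the blue ones for XBP1, TFAP2A, GATA3, TFAP2B and, by a small margin in number 1, FOXA1. Points of SPDEF and TBX3 overlap.

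The stretches of DNA before the starts of ESR1, XBP1 and EHF are shown because these genes had an unadjusted p under 0.05 and a listed start whose window lies outside their own annotated exons, or, for XBP1, meets them over 28 bases. RefSeq lists several starts for each, and 1 is shown. Each holds the 250 bases before a RefSeq transcription start (GRCh38.p14), written 5′ to 3′ on the gene's strand. In capitals are matches on either strand to motifs linked to the 10 factors.
ESR1, chr6:151806946-151807195, plus strand: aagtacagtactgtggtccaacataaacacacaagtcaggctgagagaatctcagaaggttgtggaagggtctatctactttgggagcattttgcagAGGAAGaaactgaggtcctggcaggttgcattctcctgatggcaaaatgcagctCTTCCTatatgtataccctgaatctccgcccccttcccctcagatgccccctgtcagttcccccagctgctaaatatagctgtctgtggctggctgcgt
XBP1, chr22:28800570-28800819, minus strand: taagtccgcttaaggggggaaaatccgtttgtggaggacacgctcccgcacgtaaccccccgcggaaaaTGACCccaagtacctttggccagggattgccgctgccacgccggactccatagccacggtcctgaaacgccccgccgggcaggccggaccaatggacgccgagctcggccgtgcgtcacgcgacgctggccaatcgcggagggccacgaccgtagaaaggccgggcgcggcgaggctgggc
EHF, chr11:34624007-34624256, plus strand: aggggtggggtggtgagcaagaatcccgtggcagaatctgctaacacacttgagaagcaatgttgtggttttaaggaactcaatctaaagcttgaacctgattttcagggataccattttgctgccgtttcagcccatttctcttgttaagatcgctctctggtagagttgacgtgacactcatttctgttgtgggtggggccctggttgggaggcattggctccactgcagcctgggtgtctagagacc
The capitals in ESR1 are the ETS core AGGAAG or its complement, found in 28.7% of 35116 such windows of all genes. In XBP1 they are GGTCA read on the other strand, the estrogen response half-element, found in 32.6% of windows. The EHF window shown held none of the motifs searched. The window of another EHF start, over its exons and not printed, held a forkhead, a GATA, an XBP1 and an estrogen half-element match. Of the ESR1 windows not printed, 1 held an estrogen half-element, 1 an XBP1 match and the rest none. The window of the other XBP1 start, also not printed, held AP-2, ETS and estrogen half-element matches. The forkhead motif TGTTTAC was searched as well and is in 2.98% of all windows. The GATA motif AGATAA is in 9.17% of them. The XBP1 motif CCACGT is in 8.37%. For AP-2 factors the palindrome GCCNNNGGC was searched, which 19.8% of windows hold. The full palindromic estrogen response element, which contains the half-element, is in 0.0399%. No window of the members held the full estrogen response element. A match is only a run of letters, and binding was not measured.

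ESR1 (ENSG00000091831, GRCh38 chromosome 6, 151656691 to 152129619) measured 176 CPM (number 1) and 282 CPM (number 2) in HER2 WT, against 64.7 CPM (number 1) and 122 CPM (number 2) in HER2 L755S. Both HER2 L755S libraries lay under both HER2 WT libraries, and within each line the number 2 library was the higher one. The means were 229 ± 74.6 and 93.5 ± 40.8 CPM (SD, n = 2), which is 2.45-fold lower in HER2 L755S. The log2 fold change was -1.29 (SE 0.38, 95% interval -2.14 to -0.45), with -1.45 within number 1 and -1.20 within number 2 (edgeR, Benjamini-Hochberg adjusted p = 0.15). In length-corrected units ESR1 was at 38.5 and 59.9 TPM in HER2 WT and at 14.1 and 20.4 TPM in HER2 L755S. ESR1 passed the test with no filter on low counts (edgeR, adjusted p = 0.01). Its log2 fold change was -1.60 without HER2 WT 1 and -1.83 without HER2 L755S 2. It was smaller in size without HER2 WT 2 (-0.89) and without HER2 L755S 1 (-0.905). Its call with the library number as a replicate block is given at the end.

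Of the tested protein-coding genes of at least 5 CPM, 16 lie within 2.5 Mb of its start, and their median log2 fold change was 0.13 (0.17 within number 1 and 0.09 within number 2). ESR1 was below all 16 of them. The lowest of them, MTRF1L, had -1.04. CCDC170, the nearest of them upstream, had a log2 fold change of -0.24, and SYNE1, which overlaps the 3′ end of ESR1 on the opposite strand, had 0.23. The median over 10853 such genes of the genome was 0.03.

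Among 11472 tested genes of at least 5 CPM, those nearest to ESR1 over the 4 libraries were MYBL1, COMMD8, PRR11, SERTAD4 and SLC1A2. Nearness was the distance between log2 CPM values centred on each gene's mean, from 0.17 for MYBL1 to 0.25 for SLC1A2. MYBL1, a MYB family transcription factor gene, had 32.4 and 47.3 CPM in HER2 WT libraries, against 12.8 and 23.3 CPM in HER2 L755S libraries. As in ESR1, both HER2 L755S values were the lower ones and number 2 was the higher library of each line. MYBL1 was picked for its nearness to ESR1, so this shared order follows from the choice. With 4 libraries the order is a description only. MYBL1 is also among the genes known as estrogen receptor targets that are described below.

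FOXA1 (chromosome 14, 37589984 to 37596059) measured 404 CPM (number 1) and 388 CPM (number 2) in HER2 WT, against 415 CPM (number 1) and 562 CPM (number 2) in HER2 L755S. The lines were apart by a small margin in number 1, and most of the difference came from HER2 L755S 2. Its log2 fold change was 0.30 (SE 0.30, 95% interval -0.36 to 0.96), with 0.04 within number 1 and 0.54 within number 2 (edgeR, Benjamini-Hochberg adjusted p = 0.93). In TPM the lines overlapped, at 221 and 198 in HER2 WT, against 212 and 224 in HER2 L755S. TTC6, whose annotated span meets that of FOXA1 over 213 bases on the opposite strand, had a log2 fold change of 0.30, and reads of the overlap may be mixed.

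GATA3 (chromosome 10, 8045378 to 8075203), a zinc finger factor needed for luminal differentiation, measured 823 and 672 CPM in HER2 WT libraries, against 967 and 997 CPM in HER2 L755S libraries. All HER2 L755S values were above those of HER2 WT, and the log2 fold change was 0.39 (SE 0.29, 95% interval -0.24 to 1.03). It was 0.23 within number 1 and 0.57 within number 2 (edgeR, Benjamini-Hochberg adjusted p = 0.84). In TPM the lines overlapped, at 413 and 316 against 473 and 372. GATA3-AS1, a noncoding gene on the opposite strand that overlaps GATA3 over 3035 bases, received 1028 and 622 counts from HER2 WT libraries, against 561 and 469 from HER2 L755S libraries. Its log2 fold change was -0.51 (edgeR, adjusted p = 0.81), of the other sign to GATA3. No source used here gives the strand setting of the counting, so reads of the overlap may be mixed. The overlap is of annotated spans, and the exon bases that GATA3 and GATA3-AS1 share were not counted.

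TFAP2A (chromosome 6, 10393186 to 10419659) encodes AP-2 alpha, a factor of epithelial and neural crest cells. It measured 243 and 206 CPM in HER2 WT libraries, against 334 and 310 CPM in HER2 L755S libraries, with no overlap in CPM or TPM. For TFAP2A the log2 fold change was 0.52 (SE 0.29, 95% interval -0.13 to 1.17), with 0.46 within number 1 and 0.59 within number 2 (edgeR, Benjamini-Hochberg adjusted p = 0.67). Its antisense gene TFAP2A-AS1 had a log2 fold change of 0.42 (adjusted p = 0.92).

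TFAP2B (chromosome 6, 50818723 to 50847613) encodes the paralog AP-2 beta. It measured 270 and 259 CPM in HER2 WT libraries, against 317 and 302 CPM in HER2 L755S libraries. These values were apart in CPM by less than those of TFAP2A. The log2 fold change of TFAP2B was 0.23 (SE 0.29, 95% interval -0.41 to 0.86, edgeR, Benjamini-Hochberg adjusted p = 0.97), and on the log2(TPM + 1) scale it was -0.005.

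TBX3 (chromosome 12, 114670254 to 114684164), a T-box repressor that is often mutated in lobular carcinoma, measured 372 and 431 CPM in HER2 WT libraries, against 429 and 478 CPM in HER2 L755S libraries. HER2 WT 2 lay above HER2 L755S 1, so the lines overlapped. For TBX3 the log2 fold change was 0.17 (SE 0.29, 95% interval -0.47 to 0.82, edgeR, Benjamini-Hochberg adjusted p = 0.99), and -0.011 on the log2(TPM + 1) scale.

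XBP1 (chromosome 22, 28794555 to 28800597) encodes a bZIP factor that is induced by estrogen and, once its mRNA has been spliced by IRE1, drives genes of the secretory pathway. It was the most abundant of the 10 mRNAs, with 1296 and 1315 TPM in HER2 WT and 2178 and 1450 TPM in HER2 L755S. In CPM it measured 1589 and 1625 in HER2 WT, against 2695 and 2308 in HER2 L755S. The HER2 WT values differed little, and both HER2 L755S values were above them. For XBP1 the log2 fold change was 0.64 (SE 0.28, 95% interval 0.02 to 1.26), with 0.76 within number 1 and 0.51 within number 2 (edgeR, Benjamini-Hochberg adjusted p = 0.45). Within 2.5 Mb lie 41 tested protein-coding genes of at least 5 CPM, with a median of 0.06. Of these, 1 had a higher log2 fold change than XBP1. The gene tables give totals and do not separate spliced XBP1 mRNA.

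SPDEF (chromosome 6, 34537802 to 34556333), an ETS factor of secretory epithelia, was split by number and not by line. It measured 380 CPM (number 1) and 186 CPM (number 2) in HER2 WT, against 340 CPM (number 1) and 225 CPM (number 2) in HER2 L755S. Both number 1 libraries lay above both number 2 libraries. Between lines its log2 fold change was -0.005 (SE 0.38, 95% interval -0.84 to 0.83, edgeR, Benjamini-Hochberg adjusted p = 1), with -0.16 within number 1 and 0.27 within number 2. SPDEF was the 1 member of 10 whose sign differed between the numbers. It also changed sign with size factors of DESeq2 (0.012), and was 0.60 without HER2 WT 1.

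ELF3 (chromosome 1, 202007945 to 202017188), an ETS factor restricted to epithelia, was a gene of low level with 12.9 and 10.5 CPM in HER2 WT libraries, against 7.01 and 5.22 CPM in HER2 L755S libraries. Both HER2 L755S libraries lay under both HER2 WT libraries. The log2 fold change was -0.93 (SE 0.38, 95% interval -1.76 to -0.11), with -0.88 within number 1 and -1.0 within number 2 (edgeR, Benjamini-Hochberg adjusted p = 0.37). Its antisense gene ELF3-AS1 received 16 and 16 counts from HER2 WT libraries, against 20 and 11 from HER2 L755S libraries. The 35 tested protein-coding genes of at least 5 CPM within 2.5 Mb of ELF3 had a median of -0.15. Of these, 2 were lower than ELF3. Such genes of chromosome 1 had a median of -0.17.

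EHF (chromosome 11, 34621093 to 34661057), another epithelial ETS factor, had the largest log2 fold change in size of the 10 genes and by far the fewest reads. It received 43 and 70 counts from HER2 WT libraries, against 11 and 12 from HER2 L755S libraries, or 1.33 and 2.41 against 0.376 and 0.467 CPM. The lines did not overlap, and the HER2 L755S values were 4.40-fold lower. For EHF the log2 fold change was -2.14 (SE 0.61, 95% interval -3.47 to -0.81), with -1.78 within number 1 and -2.33 within number 2 (edgeR, Benjamini-Hochberg adjusted p = 0.13). With no filter on low counts EHF passed (edgeR, adjusted p = 0.022). The result for EHF with the library number as a replicate block is given at the end. On the log2(TPM + 1) scale, which compresses low levels, the difference was -0.50. That scale also carries the shorter length estimated for EHF in HER2 L755S 1, 1382 bases against 3031 to 3150 elsewhere.

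All 23 tested protein-coding genes of at least 5 CPM within 2.5 Mb of its start had a negative log2 fold change. Their median was -0.66 (-0.55 within number 1 and -0.71 within number 2). Such genes of chromosome 11 had a median of -0.24. EHF itself lay under 5 CPM in every library, so it is set here against genes of higher level. EHF was below all 23 neighbours, of which CD59, encoding a complement inhibitor, was called at a log2 fold change of -1.44 (edgeR, adjusted p = 0.047). CD59 was not called with any 1 of the libraries left out (adjusted p from 0.081, without HER2 WT 1, to 0.15, without HER2 L755S 2). CAT, encoding catalase, and CD44, encoding a hyaluronan receptor, had -0.65 and -0.66. The difference between EHF and the median of its neighbours was -1.48, and for ESR1 it was -1.42. The part of the region in the difference of EHF was not tested.

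**Figure D2:**
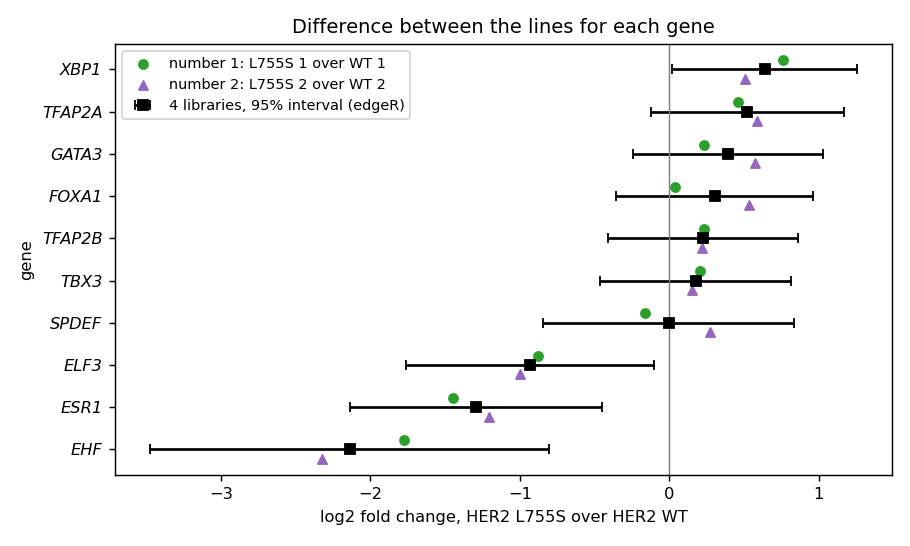
Log2 fold change of each gene, HER2 L755S over HER2 WT, with squares and 95% intervals from the 4 libraries, circles for number 1 and triangles for number 2. The intervals of ESR1, ELF3, EHF and XBP1 do not reach 0, although no gene passed the adjusted threshold.

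**Figure D3:**
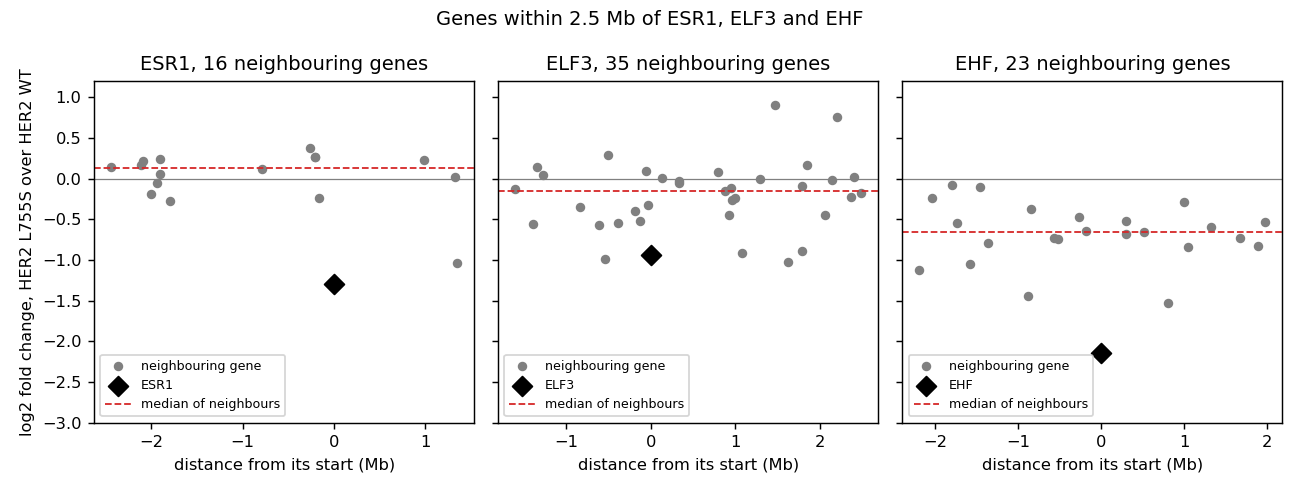
Log2 fold change of tested protein-coding genes of at least 5 CPM within 2.5 Mb of ESR1, ELF3 and EHF (grey), against distance from the member's start in Mb, along its strand. The dashed median lies at 0.13 around ESR1, -0.15 around ELF3 and -0.66 around EHF.

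The order of the 10 genes by TPM was nearly the same in every library. From the highest, XBP1 held place 1 and GATA3 place 2, and TFAP2B, ESR1, ELF3 and EHF held places 7 to 10 in all 4 libraries. FOXA1, SPDEF, TFAP2A and TBX3 exchanged the places between. FOXA1 and SPDEF were at mean levels of 210 ± 16.4 and 221 ± 112 TPM in HER2 WT (SD, n = 2), and TBX3 and TFAP2A at 140 ± 17.2 and 126 ± 5.90 TPM, so that neither pair differed beyond its spread in that line. SPDEF held place 3 in the number 1 libraries (299.95 and 261 TPM in HER2 WT and HER2 L755S) and place 5 in the number 2 libraries (141 and 135 TPM). ESR1 ranked 3761 and 2255 among all genes by TPM in HER2 WT, against 7120 and 4911 in HER2 L755S, while GATA3 stayed between 296 and 361.

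The mean transcript length that the authors' estimates give for a gene, weighted by the abundance of its isoforms, moved with the library number for several members. For TFAP2B it was 4507 and 4765 bases in the number 1 libraries of HER2 WT and HER2 L755S, and 5340 and 5360 bases in the number 2 libraries. TFAP2A went the other way, with 2690 and 2754 bases in number 1 and 2368 and 2476 bases in number 2. TBX3 had 4062 and 4099 bases in number 1 and 3813 and 3790 bases in number 2. GATA3 had 2854 and 2851 bases in number 1 and 2916 and 2924 bases in number 2, a smaller gap. For these 4 genes both number 1 values lay on the same side of both number 2 values, whatever the line. The share of all genes with such a split was not computed, so the split is a description only. ESR1 stayed between 6138 and 6267 bases and SPDEF near 1893 bases. For EHF the estimate was 1382 bases in HER2 L755S 1 against 3031 to 3150 elsewhere, on 11 counts, so its TPM there is not comparable with the others. These lengths enter the TPM values and not the CPM values.

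**Figure D4:**
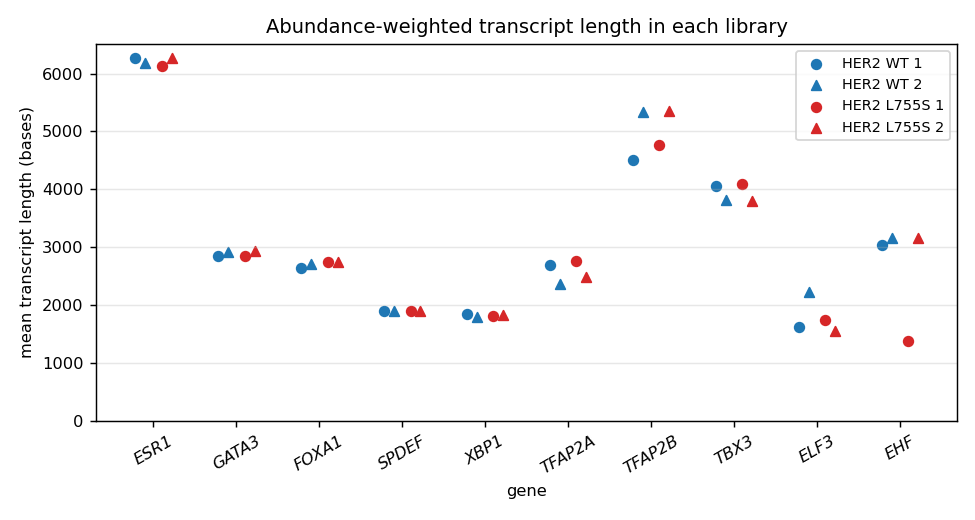
Abundance-weighted mean transcript length in bases of each gene in the 4 libraries. TFAP2A, TFAP2B, TBX3 and, by a small gap, GATA3 separate by library number (circles against triangles) and not by line (blue against red). The share of all genes that separate in this way was not computed. EHF in HER2 L755S 1 stands apart.

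Paralogs of the members were mostly low, and edgeR's quasi-likelihood test called 0 of the 13 tested. At an unadjusted p under 0.05 there was 1, GATA4, which DESeq2 called and limma-voom did not. Over all 16538 tested genes, 10.5% had an unadjusted p under 0.05, and DESeq2 called 585 and limma-voom 278. GATA2, the paralog of GATA3 with the highest level, stood at 136 and 78.8 TPM in HER2 WT and 128 and 78.9 TPM in HER2 L755S. GATA4, a factor known from heart and gut, measured 13.96 and 12.7 CPM in HER2 WT libraries, against 5.64 and 3.23 CPM in HER2 L755S libraries (log2 fold change -1.58, edgeR, adjusted p = 0.087). TFAP2C, encoding AP-2 gamma, was at 11.7 and 10.9 TPM against 7.31 and 7.82 TPM, far under TFAP2A in each library. FOXA2 was listed at 0 in every library, ESR2 did not exceed 0.11 TPM, and TBX2 did not exceed 0.93 TPM. ELF2 led the ELF paralogs at 17.4 to 29.1 TPM, and ELF5, a factor of alveolar progenitors, did not exceed 0.17 TPM.

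Other luminal and epithelial transcription factors gave 0 calls by edgeR in either direction among 28 tested genes. At an unadjusted p under 0.05 there were 6 of the 28, against 10.5% of all tested genes. DESeq2 called 3 (SOX9, GRHL3 and ZNF703) and limma-voom 0, against 585 and 278 of all 16538 tested genes. Of the 28 genes, 13 had positive and 15 had negative values, with a median of -0.06. ZNF703, a luminal cofactor gene, measured 449 and 213 CPM in HER2 WT libraries, against 117 and 93.0 CPM in HER2 L755S libraries (log2 -1.66, edgeR, adjusted p = 0.059). MYB, an estrogen-induced factor gene, had -1.19 (adjusted p = 0.18). SOX9, a progenitor factor gene, and GRHL3, a grainyhead factor gene, had 1.54 and 1.32 (adjusted p = 0.092 and 0.15). PGR, encoding the progesterone receptor, did not exceed 0.16 TPM in any library.

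Of genes known as estrogen receptor targets, 3 of 28 tested were called lower and 1 higher, where 1.69% of all tested genes were called. A negative log2 fold change was found in 24 of the 28, against 8213 of all 16538 tested genes. At an unadjusted p under 0.05 there were 16 of the 28, against 10.5% of all tested genes. DESeq2 called 7 of the 28 and limma-voom 4, against 585 and 278 of all 16538 tested genes. The median was -0.73 (-0.61 within number 1 and -0.998 within number 2), beside 0.00 over all tested genes. ELOVL2, SUSD3 and SGK3 were the lower ones, at -1.79, -1.72 and -1.96, and AGR2 was the higher one, at 2.24 (edgeR, adjusted p = 0.026, 0.031, 0.036 and 0.028). Each of these calls was lost when some libraries were left out. ELOVL2 and SGK3 were not called without HER2 WT 2 (edgeR, adjusted p = 0.053 and 0.072) or without HER2 L755S 1 (0.069 and 0.06). SUSD3 was not called without HER2 WT 1 (0.065) or without HER2 L755S 2 (0.091), and AGR2 was not called without HER2 WT 1 (0.055). This list was drawn up with results for some of its genes known, so it is no independent evidence of its direction.

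Targets of spliced XBP1, which encode chaperones and parts of the secretory pathway, gave 0 calls among 21 tested genes by edgeR, DESeq2 and limma-voom. At an unadjusted p under 0.05 there was 1, HERPUD1, against 10.5% of all tested genes. Of the 21, 18 had a positive log2 fold change, against 8325 of all 16538 tested genes. The median of the 21 was 0.20 (0.24 within number 1 and 0.21 within number 2), beside 0.00 over all tested genes. HERPUD1, of the endoplasmic reticulum degradation machinery, measured 70.5 and 61.3 CPM in HER2 WT libraries, against 145 and 103 CPM in HER2 L755S libraries (log2 0.91, edgeR, adjusted p = 0.26). SEC61B, DNAJC3 and SSR1 had 0.54, 0.43 and 0.28. The chaperone gene HSPA5 had 0.20 and DNAJB9 had 0.08.

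Among 5 tested secretory genes linked to SPDEF, 1 was called higher (AGR2) and 1 lower, the mucin gene MUC5B (log2 -5.51, edgeR, adjusted p = 0.0022). Over all tested genes, 1.69% were called. TFF3, a secreted trefoil peptide gene, had 0.54, and the bZIP factor genes CREB3L1 and CREB3L4 had -0.29 and 0.05.

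Of 17 tested luminal keratin and surface genes 0 were called by edgeR, and the median was -0.03. At an unadjusted p under 0.05 there were 2 of the 17, STC2 and MUC1, against 10.5% of all tested genes. DESeq2 called both and limma-voom neither, against 585 and 278 of all 16538 tested genes. KRT8 had -0.03, KRT18 -0.12, KRT19 -0.36 and KRT7 0.51. MUC1, a surface mucin gene, measured 4.201 and 1.34 CPM in HER2 WT libraries, against 0.513 and 0.0779 CPM in HER2 L755S libraries (log2 -3.19, edgeR, adjusted p = 0.088). Of the 7 basal genes tested 0 were called by edgeR, DESeq2 or limma-voom, and 1, TAGLN, had an unadjusted p under 0.05. TAGLN and VIM, both of mesenchymal and myoepithelial cells, had -1.24 and -0.34, and TP63, the basal master factor gene, had 1.38 at means of 0.220 and 0.570 CPM. The 1 tested gene of the luminal progenitor list, TNFRSF11A, had -0.10. Of fibroblast and endothelial markers COL1A1 was the most abundant, at 13.8 to 37.4 TPM, with a log2 fold change of 0.19, and PECAM1 was listed at 0 in all 4 libraries.

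**Figure D5:**
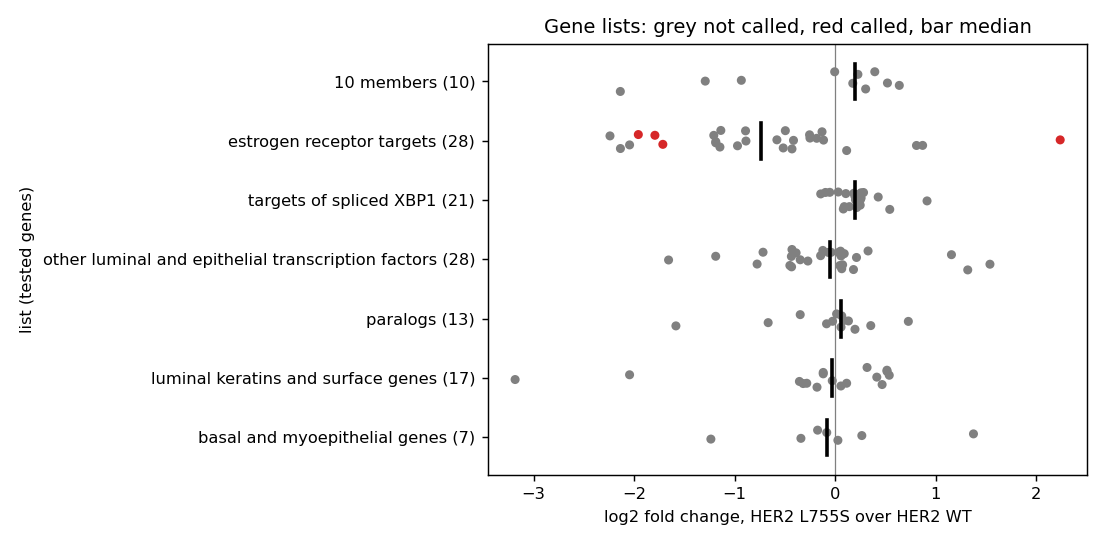
Log2 fold change (HER2 L755S over HER2 WT) of the tested genes of 7 lists, 1 point a gene, red where the adjusted p was under 0.05, with the median as a bar. The 10 members have a median of 0.20, and the estrogen receptor targets, with 24 of 28 genes on the negative side, a median of -0.73. Of all 16538 tested genes, 8213 were on the negative side.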

How the data were processed

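RNA was measured in 4 poly(A) libraries, each from 250 ng of input RNA per the labels' protocols. Per the file headers, the deposited tables are RSEM output with an expected count per gene, and TPM values that the authors computed from the same estimates. The length column deposited by the authors, a mean transcript length, was also read. STAR, edgeR and GRCh38 appear in the submitters' processing notes without version or role. The annotation release was not given in the sources used here. RSEM divides reads that fit several genes, and 9.53% to 11.5% of genes had a count that was not whole. Both number 2 tables are called merged by their names, without further detail.

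Expected counts were rounded. Genes passing filterByExpr (16538 of 60675) were scaled by TMM and tested, two-sided, by quasi-likelihood in edgeR 4.0.16 (R 4.3.3) with line as the only term, with Benjamini-Hochberg adjustment over all of them. Differences within a number are of log2 CPM (prior count 0.5). Intervals (95%) use the standard error and degrees of freedom of that test. The test was tried on simulated data with 200 changed genes. The members and lists were chosen with earlier results of these data known. The named genes are the members, called genes or those of lowest p of each list, leading paralogs, the 5 genes nearest to ESR1 and genes that overlap members. HSPA5, DNAJB9, KRT8, KRT18, KRT19, PGR, VIM, CD59, CAT, CD44 and other genes outside that rule were named after their values were seen. Positions are from GENCODE 29 (GRCh38), and promoter windows from RefSeq (GRCh38.p14), in which 9 of the 10 members were found, without TBX3. Alternatives used DESeq2 1.42.0, limma 3.58.1 (voom, and log2(TPM + 1)), other scalings and filters, a block for the number, and each library left out.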

Additional observations from a re-analysis of the deposited data

How the results depend on the processing

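Signs of ESR1, EHF, ELF3, XBP1, TFAP2A, GATA3 and FOXA1 were the same under every alternative tried. With no filter, ESR1 (log2 -1.29) and EHF (-2.14) were called, so that 2 members were called lower. The labels do not say what the library number stands for. The differences between numbers 1 and 2 of the lines correlated at 0.42 across genes. With the number as a replicate block, ESR1 (-1.32), EHF (-2.09) and ELF3 (-0.94) were called (edgeR, adjusted p = 0.00017, 0.017 and 0.021), 3 members in all, and called genes numbered 725 higher and 1018 lower. Without the block they numbered 122 and 157. DESeq2 called 276 higher and 309 lower, no filter gave 328 and 431, an adjusted p of 0.01 gave 49 and 49, and log2(TPM + 1) gave 63 higher. With 1 library left out, higher genes ranged from 160 to 220, lower genes from 184 to 328, and lower members from 0 to 1. In those fits ESR1 ranged from -1.83 to -0.89, EHF from -2.51 to -1.63 and SPDEF from -0.42 to 0.60, and the lone library of a line was assumed to vary like the other line. ESR1 was at -1.60 without HER2 WT 1 and -1.83 without HER2 L755S 2, and at -0.89 without HER2 WT 2 and -0.905 without HER2 L755S 1. SPDEF changed sign at 0.60 (without HER2 WT 1), 0.26 (without HER2 L755S 2), 0.012 (size factors of DESeq2), 0.012 (DESeq2), 0.053 (limma-voom), 0.001 (no filter), 0.053 (replicate block) and 0.004 (no mitochondrial genes). On log2(TPM + 1), TBX3 was -0.011, TFAP2B -0.005 and EHF -0.50. EHF was left out by the filter of 50 counts in 2 libraries. The cause of these changes was not tested. Depth limits EHF most, with 11 and 12 counts in HER2 L755S.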
